A study of Homo sapiens with 6 samples.

Results

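Integrins are the receptors through which cells hold on to the matrix around them, and laminins, fibronectin (FN1) and vitronectin (VTN) are matrix and plasma proteins that integrins bind. The genes were taken from the deposited table by gene name: every integrin alpha chain, every integrin beta chain, every laminin alpha, beta and gamma chain, FN1 and VTN. This gave 41 rows of 57773, with 18 rows for integrin alpha chains, 9 for integrin beta chains, 12 for laminin chains and 2 for FN1 and VTN. ITGB3 has 2 rows with overlapping spans, so reads may have been split between them.

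HepG2, an established cell line of human hepatocellular carcinoma, was profiled by RNA sequencing to find genes that respond early to TGFβ. There were 3 cultures with recombinant human TGFβ1 (5 ng/mL) and 3 with vehicle only, each harvested after 3 h. The cells were below passage 20 and had been grown as a monolayer in MEM with 10% FBS, which per the study's methods was replaced by serum-free MEM for treatment. The data describe 1 tumor line at 1 time point and 1 dose.

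Each integrin is a heterodimer of 1 alpha and 1 beta chain, and the pair decides which ligand is bound. ITGB1 joins with many alpha chains to form receptors for collagen, laminin and fibronectin, whereas ITGAV joins with several beta chains to form receptors for RGD-containing ligands such as VTN, FN1 and the latent form of TGFβ. Laminins are trimers of an alpha, a beta and a gamma chain and form a sheet in basement membranes. Hepatocytes secrete FN1 and VTN into plasma, and TGFβ is known in many cell types to act on matrix and adhesion genes.

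The cultures had from 60815385 to 100099136 reads assigned to genes. SMAD7, SKIL and PMEPA1, early targets of TGFβ signaling, were each higher in all 3 TGFβ cultures, with log2 fold changes of 1.72, 2.45 and 4.30 (FDR 3.73e-05, 8.43e-06 and 4.41e-05, Benjamini-Hochberg adjusted values of edgeR's quasi-likelihood test). All 8 hepatocyte markers passed the filter on low counts, 0 of them was called without the block and 1, TTR, was lower with the culture number as a block (log2 fold change -0.25, FDR 0.0495 in edgeR's test), and ALB had a mean RPKM (reads per kilobase of gene length, scaled to the library total) of 3926 in vehicle and 3705 in TGFβ cultures. Summed RPKM ranged from 0.82 to 1.34 in vehicle and from 1.47 to 3.04 in TGFβ cultures for the 6 fibroblast and stellate markers. This sum was mostly PDGFRB, whose mean RPKM was 0.789 in vehicle and 1.80 in TGFβ cultures (FDR 0.0582 in edgeR's test, 7.25e-06 with the block), while COL3A1, DCN, LUM and PDGFRA had between 0 and 14 reads per culture. The list also holds RGS5. Of the 6 markers 2 passed the filter on low counts, and only 1 of these 2 had a log2 fold change above 0. The defining markers PTPRC and CD3E of leukocytes had at most 1 read in a culture, KDR and TEK of endothelium at most 2, and PF4, PPBP and GP9 of platelets had 0. Summed RPKM ranged from 0.150 to 0.289 in vehicle and from 0.131 to 0.289 in TGFβ cultures for 4 endothelial markers, and from 0.0847 to 0.144 and from 0.0618 to 0.0871 for 4 platelet markers. The 6 leukocyte markers summed to between 522 and 699 RPKM in vehicle and between 461 and 474 in TGFβ cultures, nearly all of it LYZ, whose log2 fold change was -0.35 (FDR 0.106 in edgeR's test, 0.0157 with the block). The part of PDGFRB- or LYZ-expressing cells in the results was not tested. In bulk RNA, fewer cells making a transcript and less transcript per cell cannot be told apart.

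Without regard to treatment, HepG2 cells carried a small set of these chains at high levels. A median RPKM above 1 over the 6 cultures was reached by 5 integrin alpha chains, 3 integrin beta chains, 4 laminin chains, and both FN1 and VTN. FN1 was the most abundant per gene length, with a median of 554 RPKM. It was followed by ITGB1 at 56.5, LAMC1 at 51.9 and VTN at 48.3, and the ranges of these 3 over the cultures overlapped. ITGAV at 34.6, LAMB1 at 33.0, LAMB2 at 27.9, ITGA6 at 27.6 and LAMA5 at 24.6 came next by median, also with overlapping ranges. The order by median does not mark separate levels. ITGAV, from 25.4 to 59.8 RPKM, also overlapped ITGB1, LAMC1 and VTN, and LAMA5, from 18.4 to 31.4 RPKM, overlapped ITGB5 and ITGA2. ITGB5 at 20.4, ITGA2 at 15.9, ITGA1 at 4.09, ITGAE at 2.39 and ITGB4 at 1.02 RPKM completed the 14 genes, of which ITGA1, ITGAE and ITGB4 did not overlap with any other of the 14. All other members stayed at a median below 1 RPKM. ITGAE overlaps GSG2, which had 8413 reads against 9420 for ITGAE over the 6 cultures, so its level is uncertain.

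**Figure D1:**
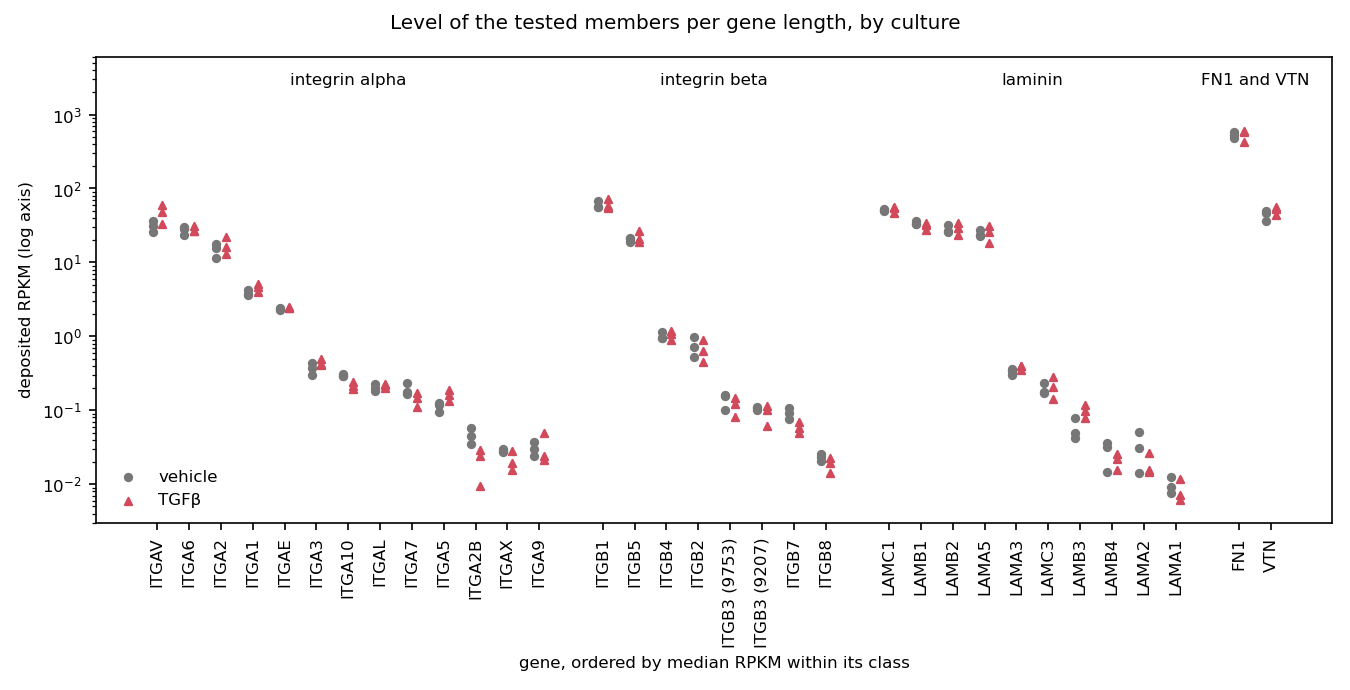
Deposited RPKM on a log axis for the 33 members with enough reads for testing, by class and ordered by median RPKM. Grey circles are vehicle cultures and red triangles TGFβ cultures. FN1 stands above all other members at a median of 554 RPKM, and the ITGAV triangles lie between 33.1 and 59.8 RPKM against 25.4 to 36.1 for the circles.

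Of the 41 rows, 33 had enough reads for testing, namely 13 of 18 integrin alpha, 8 of 9 integrin beta and 10 of 12 laminin chains, and both FN1 and VTN. At an FDR under 0.05, edgeR's quasi-likelihood test called 0 of the 33 in either direction, against 4.12% of the 22747 genes tested (3.11% higher and 1.01% lower). At an unadjusted P under 0.05 there were 6 members, or 18.2% of those tested, against 13.7% of all genes. DESeq2 called 1 member, ITGAV, and limma-voom called 0, where the same tests called 1415 and 891 of all genes. The same-numbered cultures of both groups varied together, and with the culture number as a block edgeR's test called 4 members higher and 0 lower, against 8.08% and 3.75% of all genes. These 4 were ITGAV, ITGA1, ITGA2 and VTN. They made up 12.1% of the members tested. The median log2 fold change was 0.07 over the 33 members and -0.01 over all genes tested, with 20 members above 0 and 13 below. All 3 same-numbered pairs were higher with TGFβ for 11 members (33.3%) and lower for 8 (24.2%), against 23.3% and 20.9% of all genes tested.

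**Figure D2:**
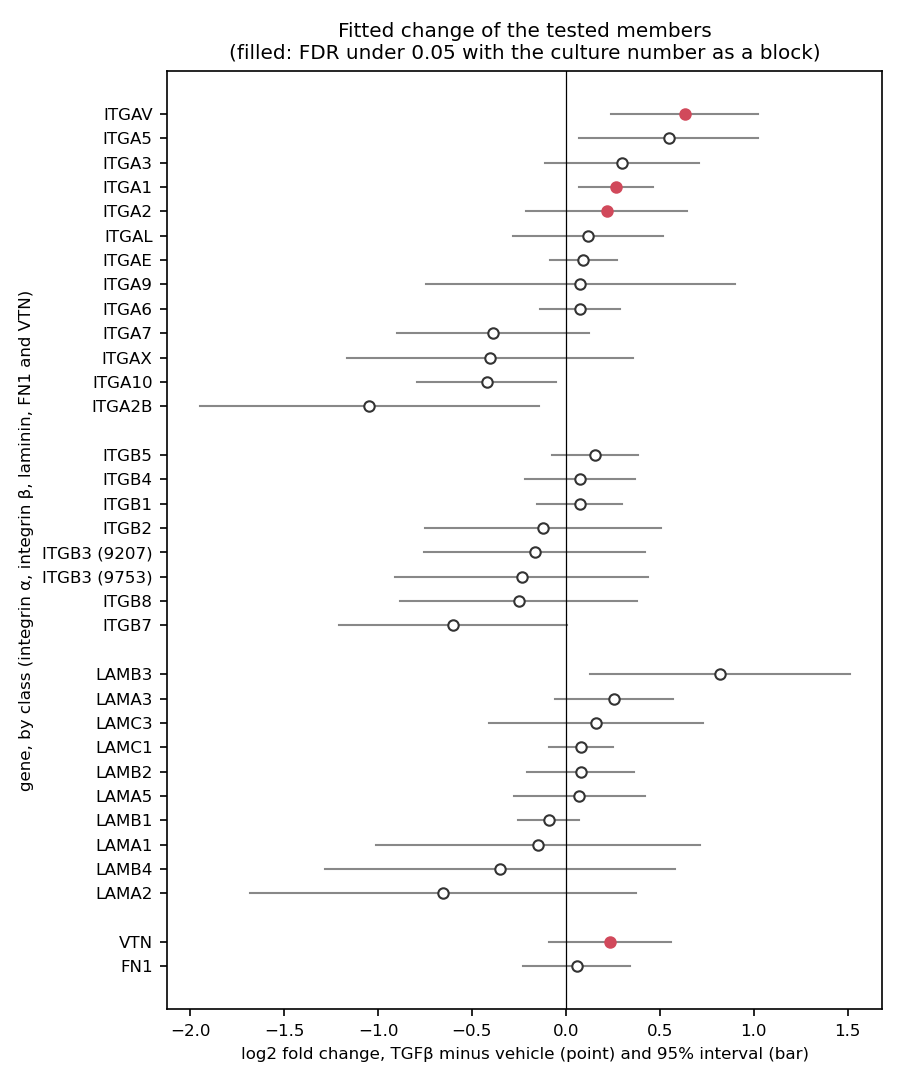
Fitted log2 fold change, TGFβ minus vehicle, of the 33 tested members without a block (points) with the 95% interval (bars), by class. Filled points mark ITGAV, ITGA1, ITGA2 and VTN, which had an FDR under 0.05 once the culture number was a block. Most abundant members lie close to 0, from -0.09 for LAMB1 to 0.15 for ITGB5, and the widest bars belong to chains with few reads.

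The upstream sequences of the 4 members that passed with the block, chosen by that call alone, are shown for reference. They are the 250 bases before the start site in the RefSeq promoter table (GRCh38.p14), matched at 1 place each to GRCh37, the build of the counts: ITGAV at chr2:187454533-187454782 on the plus strand, ITGA1 at chr5:52083500-52083749 on the plus strand, ITGA2 at chr5:52284932-52285181 on the plus strand and VTN at chr17:26697329-26697578 on the minus strand. Capitals mark CAGAC or GTCTG, the short core bound by SMAD proteins read on both strands, and GGCGCC, a GC-rich form of it that reads alike on both strands.
ITGAV: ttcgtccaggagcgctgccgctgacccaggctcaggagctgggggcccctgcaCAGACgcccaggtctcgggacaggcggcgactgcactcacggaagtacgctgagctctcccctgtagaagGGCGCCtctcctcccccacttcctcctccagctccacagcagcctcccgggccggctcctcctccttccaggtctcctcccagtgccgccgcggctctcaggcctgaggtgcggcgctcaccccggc
ITGA1: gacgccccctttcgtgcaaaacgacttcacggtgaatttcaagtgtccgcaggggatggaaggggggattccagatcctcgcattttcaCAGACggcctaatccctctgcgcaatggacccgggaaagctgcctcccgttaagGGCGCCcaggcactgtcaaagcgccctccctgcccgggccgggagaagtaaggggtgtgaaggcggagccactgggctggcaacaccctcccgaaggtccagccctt
ITGA2: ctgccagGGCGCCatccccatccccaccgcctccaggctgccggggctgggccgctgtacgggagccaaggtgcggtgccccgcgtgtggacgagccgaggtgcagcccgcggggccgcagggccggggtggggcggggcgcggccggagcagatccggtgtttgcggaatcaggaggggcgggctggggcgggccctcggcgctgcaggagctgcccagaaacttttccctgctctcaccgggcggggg
VTN: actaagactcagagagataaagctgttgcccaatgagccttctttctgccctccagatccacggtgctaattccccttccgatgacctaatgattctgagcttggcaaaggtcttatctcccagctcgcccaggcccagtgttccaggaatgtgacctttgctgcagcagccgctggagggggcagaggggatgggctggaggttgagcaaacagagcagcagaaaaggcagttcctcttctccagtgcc

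The ITGAV and ITGA1 windows each held 1 CAGAC and 1 GGCGCC, the ITGA2 window held 1 GGCGCC, and the VTN window held neither. Among 34788 windows of the same length in the table, 38.0% held CAGAC or GTCTG and 16.4% held GGCGCC. For the 35 windows of members, which cover 28 of the 40 member gene names, the shares were 37.1% and 20.0%, close to those of all windows. The AP-1 motif TGACTCA or TGAGTCA, in both its orientations, was in 4.21% of all windows and 5.71% of member windows, and in none of the 4 windows shown. The ITGA1 window is also the window the table gives for PELO, a gene that lies within ITGA1 in the count table. The table gives ITGAV a second start 10140 bases downstream of the start of its row, and the VTN start lies 2782 bases inside the span of its row. These are matches of letters only, and no binding was measured.

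ITGAV showed the largest difference among the abundant members. It is the alpha chain of the vitronectin receptor family and of the integrins that release active TGFβ from its latent complex. ITGAV (ENSG00000138448) spans chr2:187454792-187545628 in the hg19 counts. Its TMM-normalized CPM (counts scaled to the library size) was 316, 349 and 256 in vehicle cultures 1 to 3 and 484, 592 and 351 in TGFβ cultures 1 to 3. Every TGFβ culture lay above every vehicle culture, although TGFβ culture 3 exceeded vehicle culture 2 by little. On the deposited RPKM scale the groups overlapped, with 33.1 in TGFβ culture 3 and 36.1 in vehicle culture 2. The means were 307 ± 47.3 and 476 ± 121 (SD, n = 3 each), a 1.55-fold difference. This is a log2 fold change of 0.63 with an SE of 0.18 and a 95% interval from 0.24 to 1.02 (FDR 0.0899 in edgeR's quasi-likelihood test), so it missed the threshold. With the culture number as a block it was 0.61, with an FDR of 3.97e-05 in edgeR's test. The differences within pairs 1, 2 and 3 were 0.62, 0.76 and 0.46 on the log2 CPM scale.

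Which culture was left out decided the ITGAV call without the block. Without TGFβ culture 3 the edgeR FDR was 0.00989 at a log2 fold change of 0.80, and in the other 5 fits that each lacked 1 culture it did not pass. DESeq2's FDR was 0.00742, and with no filter on low counts edgeR's FDR was 0.543. In the blocked fit, leaving out pair 1, 2 or 3 gave edgeR FDRs of 0.00044, 0.000141 and 7.98e-08. Pairs 1 and 2 were each sequenced on 1 lane, whereas the cultures of pair 3, which had the smallest difference, were on lanes 4 and 5. The part of the lane in the result was not tested. AC017101.10, which overlaps ITGAV on the opposite strand, had 8280 reads against 192678 for ITGAV and a log2 fold change of 0.53 (FDR 0.185 in edgeR's test). The strand setting of the counts is not given in the sources used here, so reads of these 2 genes cannot be told apart.

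**Figure D3:**
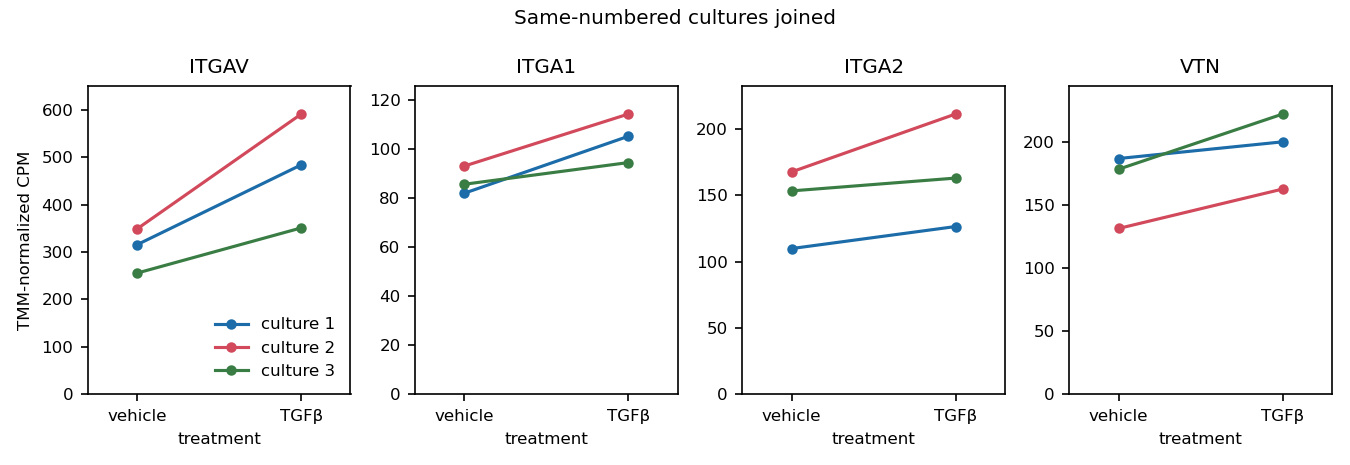
TMM-normalized CPM of ITGAV, ITGA1, ITGA2 and VTN, with lines joining the vehicle and TGFβ culture of the same number, on axes that start at 0. All 12 lines climb from vehicle to TGFβ. For ITGA2 and VTN the vehicle and TGFβ values overlap, while each line still climbs.

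ITGA1, the alpha chain of the collagen receptor that prefers collagen IV, had 81.8, 92.9 and 85.5 CPM in vehicle and 105, 114 and 94.3 CPM in TGFβ cultures. The groups did not overlap on this scale, but did in RPKM, with 3.94 in TGFβ culture 3 and 4.25 in vehicle culture 2. TGFβ culture 3 was again the lowest of its group. The log2 fold change was 0.27 with an SE of 0.09 (1.20-fold, FDR 0.165 in edgeR's quasi-likelihood test). With the block it was 0.27 with an FDR of 0.00815, and the edgeR FDR stayed between 0.00196 and 0.0495 when any 1 pair was left out. PELO, inside the ITGA1 span, had 16607 reads against 46426 and a log2 fold change of -0.01.

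ITGA2, the alpha chain of the other main collagen receptor, which also binds laminin, lies next to ITGA1 on chromosome 5. It had 110, 168 and 153 CPM in vehicle and 126, 211 and 163 CPM in TGFβ cultures. The groups overlapped widely, with the cultures numbered 1 the lowest and those numbered 2 the highest in each group. A log2 fold change of 0.22 was fitted, and its 95% interval from -0.21 to 0.64 included 0 (FDR 0.742 in edgeR's test). With the block it was 0.21 with an FDR of 0.0317, and the differences within pairs 1, 2 and 3 were 0.20, 0.33 and 0.09. The call was lost when pair 1 (FDR 0.0812) or pair 2 (FDR 0.286) was left out of edgeR's blocked fit.

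ITGA6, the alpha chain of laminin receptors with ITGB1 or ITGB4, was the second most abundant alpha chain per gene length. It had 195, 236 and 236 CPM in vehicle and 219, 255 and 229 CPM in TGFβ cultures, which overlapped. Its log2 fold change was 0.07, with a 95% interval from -0.14 to 0.29 (FDR 0.833 in edgeR's test). Its sign turned when vehicle culture 1 or TGFβ culture 2 was left out.

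Among the alpha chains with few reads, ITGA5, the classical fibronectin receptor chain, had 1.18, 0.845 and 1.09 CPM in vehicle and 1.49, 1.74 and 1.32 CPM in TGFβ cultures. The groups did not overlap, and the log2 fold change was 0.55 (FDR 0.265 in edgeR's test, 0.116 with the block). ITGA10, a collagen receptor chain of cartilage, was lower in every TGFβ culture, with 2.22, 2.29 and 2.27 CPM against 1.53, 1.83 and 1.71 CPM and a log2 fold change of -0.42 (FDR 0.272 in edgeR's test). ITGA2B, the platelet fibrinogen receptor chain, had 0.238, 0.290 and 0.390 CPM in vehicle and 0.196, 0.162 and 0.0686 CPM in TGFβ cultures. Its log2 fold change of -1.05 (FDR 0.263 in edgeR's test) rests on very few reads. These 3 genes, with LAMB3 and ITGB7, were named after their values were seen, because their groups did not overlap. On the TMM-normalized CPM scale, complete separation was found upwards for 4 of the 33 members (12.1%) and downwards for 3 (9.09%), against 10.4% and 8.23% of all genes tested, so these shares are near the background.

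The other tested alpha chains were ITGA3, a laminin receptor chain, ITGA7, the laminin receptor chain of muscle, ITGA9, a chain that binds tenascin and VCAM1, and ITGAL, ITGAX and ITGAE, which are chains of leukocyte integrins. Their log2 fold changes ran from -0.40 for ITGAX to 0.30 for ITGA3, and all had overlapping groups. ITGA7 overlaps BLOC1S1 and METTL7B, which had 10771 and 7049 reads against its 636, and ITGA9 overlaps AC093415.2, with 503 reads against 152, so the levels of both are uncertain. ITGA4, ITGA8, ITGA11, ITGAD and ITGAM had between 4 and 33 reads over the 6 cultures together, and no difference was detectable at this depth. For ITGAM, with the most reads of these, the ratio of TGFβ to vehicle reads scaled to library size was 1.43 with a 95% interval from 0.677 to 3.13, which covers counting error only.

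Summed over the 18 alpha chains, the level per gene length was 81.0 ± 9.56 RPKM in vehicle and 100 ± 20.1 RPKM in TGFβ cultures (SD, n = 3 each). The groups overlapped. ITGAV made up 42.6%, 39.3% and 32.8% of this sum in vehicle and 50.1%, 48.8% and 39.9% in TGFβ cultures. Each share was larger in the TGFβ culture of the same number, but the groups overlapped through TGFβ culture 3. ITGA6 held 32.2%, 32.5% and 37.2% in vehicle and 27.7%, 25.8% and 31.8% in TGFβ cultures, with no overlap, while its own CPM overlapped between the groups. Shares of 1 sum are bound to each other, so the lower share of ITGA6 goes with the higher share of ITGAV.

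**Figure D4:**
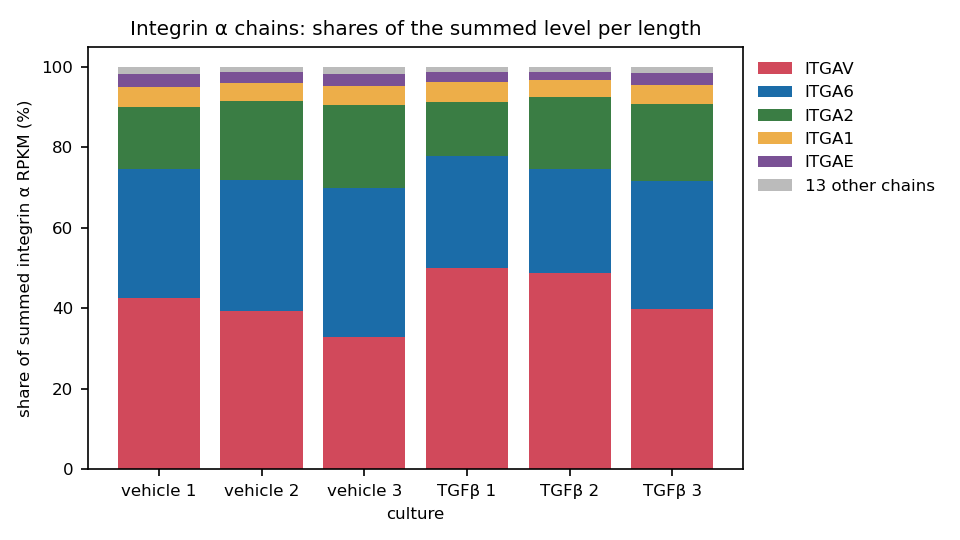
Share of the summed RPKM of the 18 integrin alpha chains held by each of the 5 most abundant chains and by the 13 others together, as stacked bars from 0 to 100% for each culture. ITGAV (bottom) and ITGA6 (next) held most of the sum in all 6 cultures, with ITGAV between 32.8% and 42.6% in vehicle and between 39.9% and 50.1% in TGFβ cultures.

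Of the integrin beta chains, 0 passed in any fit, with or without the block, among the 8 rows tested. ITGB1, the common partner of ITGA1, ITGA2, ITGA5, ITGA6 and ITGAV, had 415, 489 and 420 CPM in vehicle and 431, 527 and 436 CPM in TGFβ cultures. These ranges overlapped. At 0.07, the log2 fold change was near 0, with a 95% interval from -0.15 to 0.30 (FDR 0.848 in edgeR's test).

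ITGB5, which joins ITGAV to form a vitronectin receptor, had 161, 164 and 148 CPM in vehicle and 162, 205 and 160 CPM in TGFβ cultures. Only TGFβ culture 2 lay above all vehicle cultures. Its log2 fold change was 0.15 with a 95% interval from -0.08 to 0.38 (FDR 0.625 in edgeR's test, 0.169 with the block). ITGB4, the hemidesmosome partner of ITGA6, had 9.44, 7.67 and 7.94 CPM in vehicle and 9.77, 8.77 and 7.87 CPM in TGFβ cultures, which overlapped, and a log2 fold change of 0.08. ITGB4 overlaps GALK1, which had 18487 reads against its 4185, so its level is uncertain.

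The remaining beta chains were low. ITGB7, a leukocyte chain, was lower in every TGFβ culture, with 0.589, 0.398 and 0.503 CPM against 0.320, 0.373 and 0.288 CPM and a log2 fold change of -0.60 (FDR 0.373 in edgeR's test). ITGB2, another leukocyte chain, ITGB8, an ITGAV partner that binds latent TGFβ, and the 2 rows of ITGB3, the ITGAV partner of the classical vitronectin receptor, had log2 fold changes between -0.25 and -0.12 with overlapping groups. ITGB6, a further ITGAV partner, had 13 reads in all. The ITGB3 rows had 289 and 214 reads over the 6 cultures and also overlap EFCAB13, with 473 reads. Of the beta chains known to pair with ITGAV, ITGB1 and ITGB5 were therefore the abundant ones by RNA level per gene length. Protein complexes were not measured.

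Ratios of RPKM set each alpha chain against a partner within a culture, where scaling of the library cancels. ITGAV to ITGB5 was 1.54, 1.67 and 1.36 in vehicle and 2.34, 2.27 and 1.73 in TGFβ cultures. ITGAV to ITGB1 was 0.568, 0.532 and 0.454 in vehicle and 0.839, 0.838 and 0.601 in TGFβ cultures. For both ratios the lowest TGFβ culture lay above the highest vehicle culture. ITGA1 to ITGB1 also did not overlap, at 0.0650 ± 0.00225 in vehicle and 0.0745 ± 0.00523 in TGFβ cultures (SD, n = 3 each). The CPM of ITGAV and of ITGA1 was already separated between the groups, so these ratios restate those values and add no separate evidence. How often such ratios separate over all genes was not computed. The other 6 of 9 ratios computed, among them ITGA6 to ITGB1, ITGA6 to ITGB4 and ITGA2 to ITGB1, overlapped. With 3 cultures a group, the smallest P that an exact two-sided permutation test can give is 0.1, so none of the 9 can pass.

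No laminin chain passed in any fit either, among 10 tested. LAMC1, the gamma chain of most laminins, had 546, 503 and 505 CPM in vehicle and 574, 559 and 510 CPM in TGFβ cultures. The groups overlapped, and the log2 fold change of 0.08 had a 95% interval from -0.09 to 0.25 (FDR 0.763 in edgeR's test). LAMB1, the beta chain that is widespread in early basement membranes, had 327, 343 and 331 CPM in vehicle and 318, 331 and 292 CPM in TGFβ cultures. It was the only abundant member below 0 in all 3 pairs, and its log2 fold change of -0.09 had a 95% interval from -0.25 to 0.07 (FDR 0.715 in edgeR's test, 0.306 with the block). LAMB1 overlaps DLD, which had 53851 reads against 156509.

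LAMB2, the beta chain of kidney and muscle basement membranes, had 269, 217 and 214 CPM in vehicle and 290, 239 and 211 CPM in TGFβ cultures. Both cultures numbered 1 were the highest, and the log2 fold change of 0.08 turned in sign without TGFβ culture 1. LAMA5, the alpha chain of the main adult epithelial laminins, had 493, 403 and 416 CPM in vehicle and 569, 459 and 349 CPM in TGFβ cultures, so that the TGFβ group spanned the vehicle group. Its log2 fold change was 0.07, and it overlaps ADRM1, which had 84422 reads against 219982. LAMC1, LAMB1, LAMB2 and LAMA5 together held nearly all of the laminin RNA per gene length, with a sum over the 12 chains of 138 ± 7.28 RPKM in vehicle and 139 ± 18.7 RPKM in TGFβ cultures (SD, n = 3 each).

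LAMA3 and LAMB3, laminin chains of epithelial basement membranes, were low. LAMB3 had 0.283, 0.434 and 0.244 CPM in vehicle and 0.454, 0.559 and 0.713 CPM in TGFβ cultures. The groups did not overlap in CPM but touched in RPKM, at 0.0787 in vehicle culture 2 and TGFβ culture 1, and the log2 fold change of 0.82 had a wide 95% interval from 0.13 to 1.51 (FDR 0.245 in edgeR's test). LAMA3 was higher in all 3 pairs with overlapping groups and a log2 fold change of 0.26 (FDR 0.511 in edgeR's test). LAMA1, LAMA2, LAMB4 and LAMC3 had log2 fold changes from -0.65 for LAMA2 to 0.16 for LAMC3, all with overlapping groups, and LAMA4 had 22 reads in all. LAMA2, with 146 reads, overlaps the pseudogenes MESTP1 and BMPR1APS1, which had 235 and 391.

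FN1, the fibronectin that ITGA5 and ITGAV receptors bind, was abundant and did not pass in any fit. It had 12376, 10703 and 10127 CPM in vehicle and 12881, 12237 and 9468 CPM in TGFβ cultures. The TGFβ group held both the highest and the lowest value. Its log2 fold change was 0.06 with a 95% interval from -0.23 to 0.34 (FDR 0.907 in edgeR's test), and the differences within pairs 1, 2 and 3 were 0.06, 0.19 and -0.10.

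VTN, the plasma adhesion protein bound by ITGAV receptors, had 187, 132 and 179 CPM in vehicle and 200, 163 and 223 CPM in TGFβ cultures. Both cultures numbered 2 were low, and the groups overlapped. Here the log2 fold change was 0.24 with a 95% interval from -0.09 to 0.56 (FDR 0.582 in edgeR's test). With the block it was 0.24 with an FDR of 0.0146, and the differences within pairs 1, 2 and 3 were 0.10, 0.31 and 0.32. The call was lost in edgeR's blocked fit without pair 2 (FDR 0.131) or pair 3 (FDR 0.0691). The span of VTN overlaps TMEM199 and SARM1, with 17570 and 18801 reads against 87207 for VTN and log2 fold changes of 0.12 and 0.14. It also overlaps CTB-96E2.2, with 16359 reads and a log2 fold change of 0.41, above that of VTN (FDR 0.491 in edgeR's test), and CTB-96E2.3, with 7090 reads and 0.12. Part of the VTN reads may be shared with these genes, and their part in the VTN difference was not tested.

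Genes that act with these members were listed by role, with earlier results of these data known. Among adaptors of integrin tails and focal adhesion proteins, 29 of 30 were tested, 7 were higher with TGFβ and 1 was lower at an FDR under 0.05 in edgeR's test without the block, against 3.11% and 1.01% of all genes. TNS1, a tensin that links integrin tails to actin, had 14.6, 9.71 and 12.8 CPM in vehicle and 67.7, 85.6 and 57.2 CPM in TGFβ cultures, a log2 fold change of 2.50 (FDR 6.24e-05 in edgeR's test). BCAR1, a scaffold phosphorylated on adhesion, rose by 0.77 and TNS4, another tensin, by 0.75 on the log2 scale (FDR 0.00268 and 0.0441 in edgeR's test). The TNS4 call held in only 1 of the 6 fits that left out a culture. The other 4 that rose were KANK2, ZYX, TNS3 and PXN, with log2 fold changes between 0.38 and 0.58. DAB2, an adaptor for integrin endocytosis, fell by 0.50 (0.705-fold, FDR 0.00852 in edgeR's test), and its groups did not overlap. TLN1, which activates integrins, and ILK were not called, with log2 fold changes of -0.04 and 0.20.

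For this list and each list that follows, the share of all genes tested was 3.11% higher and 1.01% lower. Of 12 other basement membrane genes tested, COL4A2 alone was called, at 0.521, 0.483 and 0.374 CPM in vehicle and 1.25, 1.59 and 1.55 CPM in TGFβ cultures. Its log2 fold change was 1.66 (FDR 0.00294 in edgeR's test), at a level that stayed low. NID1 and HSPG2, which bind laminin in the basement membrane, had log2 fold changes of 0.00 and 0.03 and were not called. Among 15 tested matrix ligands of integrins other than laminins, FN1 and VTN, 4 were higher and 0 lower in edgeR's test: CYR61 (log2 fold change 0.98), NPNT (0.73), CTGF (0.57) and THBS1 (0.57). CYR61 and CTGF are matricellular proteins that bind ITGAV receptors, and NPNT is a ligand of ITGA8. ITGA8 itself had 31 reads over the 6 cultures. The CTGF call held in 2 of the 6 fits that left out a culture.

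SDC4, a syndecan that acts with integrins in adhesion to FN1, had 226, 226 and 216 CPM in vehicle and 397, 416 and 433 CPM in TGFβ cultures, a log2 fold change of 0.90 (FDR 9.92e-05 in edgeR's test). It was 1 of 7 non-integrin matrix receptors tested, and the other 6 were not called. PLEC, the linker between ITGB4 and keratin filaments, rose by 1.01 on the log2 scale (2.01-fold, FDR 0.00195 in edgeR's test), 1 of 6 tested hemidesmosome and tetraspanin genes. Among 7 tested genes listed under the latent TGFβ complex, TGFB1 rose by 0.65 and LTBP2 by 0.77 (FDR 0.00336 and 0.0212 in edgeR's test). LTBP2 was listed by its gene family, and whether its protein is part of a complex that ITGAV integrins bind was not tested. The LTBP2 call held in 2 of the 6 fits that left out a culture.

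**Figure D5:**
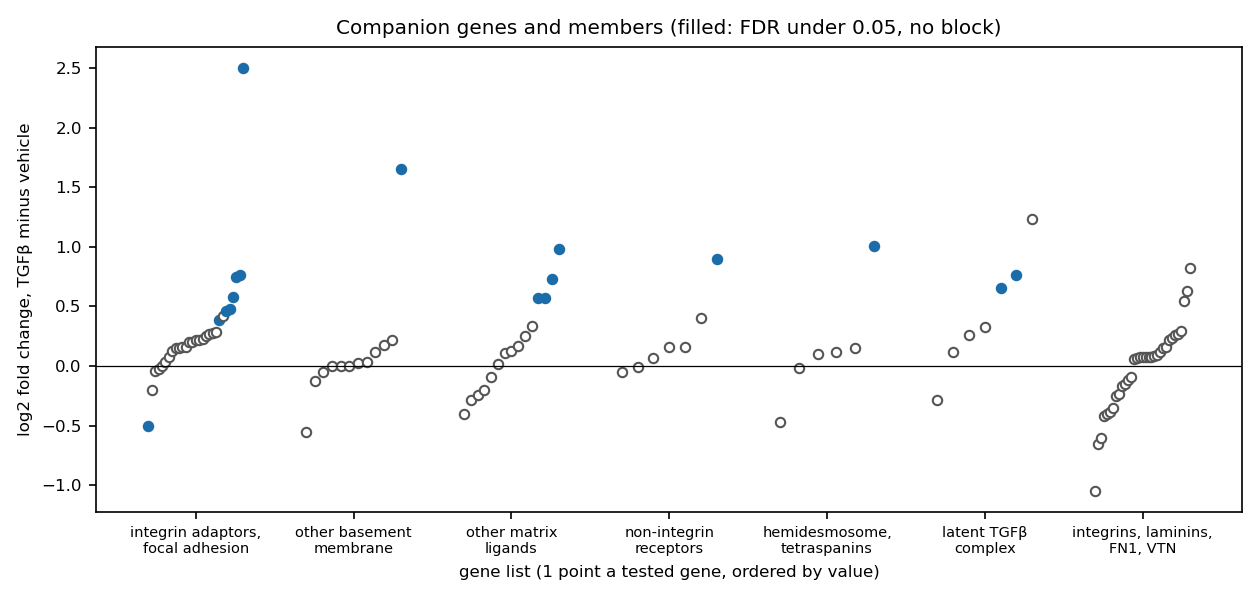
Log2 fold change, TGFβ minus vehicle, of each tested gene in 6 lists of genes that act with integrins and of the 33 tested members (right), ordered by value within a list. Filled points passed an FDR of 0.05 without the block: 7 higher and 1 lower among adaptors, with TNS1 highest at 2.50, and 0 among the integrins, laminins, FN1 and VTN, which run from -1.05 to 0.82.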

How the data were processed

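HepG2 RNA (TruSeq v2 mRNA libraries, paired reads of 51 bases) came from 3 vehicle and 3 TGFβ cultures. The authors mapped reads to hg19 (GRCh37) and deposited raw counts per gene. Their processing notes name TopHat2 2.0.6, HTSeq and bcl2fastq, and the methods name MAPRseq. The RPKM values, deposited beside the counts, equal the count divided by gene length and a library total, and were used for levels, shares and ratios. Annotation release, strand setting and handling of overlapping genes: not given in the sources used here. Of the per-sample columns, 0 were left unused.

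Counts were tested in edgeR 4.0.16 (limma 3.58.1, R 4.3.3) after TMM and filterByExpr. The main model had no block, and its robust quasi-likelihood F test was adjusted by Benjamini-Hochberg (FDR) over 22747 genes. SEs are those implied by the F statistic. Alternatives were other scaling (size factors of DESeq2, library totals), other filters (none, or a minimum of 10 counts in each culture), DESeq2 1.42.0, limma-voom, the culture number as a block, and leaving out each culture. The code was tested on simulated data, drawn without pairing, in which the blocked fit and DESeq2 called a larger share of unchanged genes than the main model and than their FDR threshold. Groups and culture numbers came from the labels. Across genes, the deviations from group means correlated at 0.366, 0.227 and 0.316 between cultures of the same number and at most at 0.0101 otherwise, which was read as pairing by number. Replicates differed beyond counting noise, with a chi-square per gene of 21.0 to 46.2. The labels do not say whether cultures were independent. The paper's methods speak of independent biological replicates for graphed results and of biological replicates for sequencing. P-values set the difference between groups against the spread between these cultures.

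Values of each culture are given for members at an FDR under 0.05 with or without the block and for the 3 members of highest median RPKM in each class. From each list of companion genes, up to 3 called genes with the largest change were named by rule. Other companions and the remaining members were named after their values were seen. Members and lists were chosen with earlier results of these data known. Some values that were examined are not reported here.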

Additional observations from a re-analysis of the deposited data

How the results depend on the processing

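Without the block, 937 genes were called, against 1415 with DESeq2, 2690 with the replicate block and between 485 and 998 when single cultures were left out. Without the block 0 integrin alpha chains passed, against 1 with DESeq2, 3 with the block and between 0 and 1 when single cultures were left out, the 1 being ITGAV without TGFβ culture 3. FN1 and VTN gave 0, and 1 with the block. Integrin beta and laminin chains gave 0 in every alternative run, and the block on all 3 pairs changed the call of no tested member other than ITGAV, ITGA1, ITGA2 and VTN. Blocked fits that left out pair 1, 2 or 3 were added after seeing the data and called 2390, 1480 and 3063 genes, 2, 2 and 4 alpha chains, and, of FN1 and VTN, 1, 0 and 0. The fourth alpha chain, without pair 3, was ITGA5 (log2 fold change 0.67, FDR 0.0458 in edgeR's test). Several log2 fold changes near 0 changed sign when single cultures were left out. They ranged from -0.021 (without vehicle culture 1) to 0.121 for ITGA6, which was also -0.00105 without TGFβ culture 2, from -0.0378 (without TGFβ culture 2) to 0.149 for ITGB1, and, lowest without TGFβ culture 1, from -0.0108 to 0.165 for ITGB4, from -0.0597 to 0.184 for LAMB2 and from -0.034 to 0.175 for FN1. FN1 was also -0.00126 without vehicle culture 3 and -0.00567 in the blocked fit without pair 2. Across all 16 alternatives ITGAV stayed above 0, from 0.43 to 0.80. TNS1 lost its call in the blocked fits without pair 1 (FDR 0.0675) or pair 3 (FDR 0.161), and TNS4 in 9 of 16 alternatives. The causes were not tested. How far depth limits the chains with few reads was not tested.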

Other observations

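With the culture number as a block, further genes that act with integrins passed in edgeR's quasi-likelihood test that had not passed without it. That fit called 8.08% of all genes tested higher and 3.75% lower. It called 11 of 29 tested adaptors higher and 1 lower, and 5 of 15 matrix ligands higher and 3 lower. Of 12 other basement membrane genes it called 1 higher and 1 lower. It called 2 of 7 non-integrin receptors and 3 of 7 genes of the latent TGFβ list higher, and 0 lower. The genes below were named after their values were seen. FERMT2, a kindlin that activates integrins, had a log2 fold change of 0.27 (blocked FDR 0.00847, 0.0879 without the block), PTK2, the focal adhesion kinase, 0.25 (blocked FDR 0.00622, 0.0685 without), LIMS1, a partner of ILK, 0.28 (blocked FDR 0.00435, 0.370 without) and ITGB1BP1, which binds the ITGB1 tail, 0.22 (blocked FDR 0.0124, 0.186 without). DAG1, the dystroglycan receptor for laminins, stood at 0.41 with the block (blocked FDR 0.000262, 0.0877 without). TGFBI, a matrix ligand of integrins, was at 0.34 (blocked FDR 0.00148, 0.0588 without), and LTBP3 of the latent TGFβ complex at 0.26 (blocked FDR 0.0198, 0.427 without).

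In the opposite direction, NTN4, a netrin that binds laminin gamma chains, was at -0.56 with the block (blocked FDR 9.48e-05, 0.114 without it), with overlapping groups. The fibrinogen chains FGA, FGB and FGG, plasma ligands of integrins made by hepatocytes, were at -0.27, -0.22 and -0.32 with the block (blocked FDRs 0.0120, 0.0331 and 0.0154 in edgeR's test, and between 0.685 and 0.726 without it). VTN, also a plasma ligand from hepatocytes, was at 0.24 in the same fit.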
